A study of Mus musculus with 15 samples.

Results

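The 47 genes described here are mouse genes known to be induced by interferons, taken as a list from the 42396 gene entries of 2 count tables. The list and its grouping were chosen with earlier results of these data known, so shares set beside those of all genes are descriptive. All 47 were found in both tables. They comprise 4 transcription factors, 26 genes of the type I antiviral group, 14 genes of the interferon gamma GTPase group, 2 chemokines and Tmem140. RNA was sequenced from the tibialis anterior, a fast hindlimb muscle, of adult C57BL/6 mice 2 months after an adeno-associated virus (serotype AAV6) was given to the hindlimb. The groups were males given LSMEM2 C-del (4 libraries), males given EGFP as mock (4), females given LSMEM2 C-del (4) and females given EGFP as mock (3). All 4 groups thus carried an AAV6 vector, and no group without virus was analysed here. The labels do not spell out C-del, and neither the promoter of the vector nor the cells it reached are given there.

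Interferons are secreted proteins made when cells sense virus or, in the case of interferon gamma, by activated T and NK cells. Type I interferons act through JAK kinases on a complex with STAT2 and IRF9 that binds the interferon-stimulated response element (ISRE). Interferon gamma acts on the gamma-activated site (GAS) and through the factor IRF1. The induced genes block viral RNA and protein synthesis, attack vacuoles that hold pathogens, and raise antigen presentation, and muscle fibres as well as infiltrating leukocytes can express them.

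Promoters of some of the genes are shown first, chosen because they carry the elements these signals use. Gbp4, Gbp6 and Gbp10, which fell in males, are not among those shown. Tgtp1 and Tgtp2 are shown although they did not pass the test in males. A window from 250 bases before to 50 bases after the start was present in RefSeq (GRCm38.p6) for 34 of the 47 genes. Matches to the ISRE core (TTTCNNTTTC or its reverse complement GAAANNGAAA) lay in 22 of these 34 genes (64.7%), against 1079 of all 27025 genes with a window (3.99%). Matches to the GAS core (TTCNNNGAA, which reads alike on both strands) lay in 13 genes (38.2%), against 2582 of all genes (9.55%). Both cores were present in 9 of the 34 genes (26.5%) and in 146 of all genes (0.54%). In the GTPase group 9 of 10 genes with a window held an ISRE core and 6 of 10 held both, whereas in the type I antiviral group the counts were 10 and 3 of 17. The GTPase group has 14 genes, so these shares leave out those with no window. No match was found for Gbp4, Gbp6 or Gbp10, at least some of which had no window. Below are stretches of 80 bases upstream of the start, with every match in capitals. In Igtp, Irgm2, Tgtp1 and Tgtp2 a GAS core stood 2 bases before an ISRE core. Of all 32851 windows only 5 had that spacing, and the fifth belonged to the predicted gene Gm12185. Irf1 held a GAS core alone, while Tmem140, Rsad2 and Ifit1 held ISRE cores alone. A match describes these letters and does not show that a factor binds there.
Igtp (chr11:58199476-58199555, + strand): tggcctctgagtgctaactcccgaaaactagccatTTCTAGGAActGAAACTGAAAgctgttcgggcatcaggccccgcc
Irgm2 (chr11:58214872-58214951, + strand): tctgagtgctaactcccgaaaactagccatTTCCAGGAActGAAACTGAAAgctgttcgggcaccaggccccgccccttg
Tgtp1 (chr11:48992285-48992364, - strand): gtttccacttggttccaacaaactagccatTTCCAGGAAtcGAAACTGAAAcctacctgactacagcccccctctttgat
Tgtp2 (chr11:49064244-49064323, - strand): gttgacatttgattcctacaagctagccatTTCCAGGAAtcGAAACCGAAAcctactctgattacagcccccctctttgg
Irf1 (chr11:53769888-53769967, + strand): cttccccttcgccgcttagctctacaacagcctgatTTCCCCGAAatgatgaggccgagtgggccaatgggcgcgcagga
Tmem140 (chr6:34863048-34863127, + strand): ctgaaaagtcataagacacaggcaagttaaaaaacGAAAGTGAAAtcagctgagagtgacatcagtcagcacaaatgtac
Rsad2 (chr12:26456528-26456607, - strand): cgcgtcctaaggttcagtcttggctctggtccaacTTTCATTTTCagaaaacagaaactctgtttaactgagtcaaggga
Ifit1 (chr19:34640759-34640838, + strand): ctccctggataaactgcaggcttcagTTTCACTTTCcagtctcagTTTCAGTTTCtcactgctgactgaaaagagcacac

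Values are expected counts as deposited, given here as CPM, that is counts relative to library size, on sizes scaled within each sex. Total counts ran from 15300000 to 17740000 in male C-del, 14300000 to 15450000 in male mock, 10240000 to 12050000 in female C-del and 9285000 to 10790000 in female mock libraries. Whether each library is a separate animal is not stated, so a p-value reflects only the scatter among libraries, and that may be technical. The delivered gene Lsmem2 was at 481, 2355, 1865 and 1287 CPM in male C-del libraries, against 29.7, 29.5, 29.2 and 28.5 CPM in male mock libraries, and female libraries separated in the same way. The extraction text speaks of hearts, but 5 skeletal muscle genes summed to between 88880 and 126700 CPM in the 15 libraries and 4 heart genes to between 3.0 and 7.86 CPM. Female mock libraries 2 and 3 stood apart from the other 13 libraries in these genes and in leukocyte markers, as given below with the female results. Each sex had its own table, so that sex and table cannot be told apart. Male library numbers are column numbers and pair nothing.

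In male muscle 5 of 13 tested genes of the interferon gamma GTPase group fell with C-del, and so did Irf1, Rsad2 and Tmem140. In a fit of all 15 libraries only Rsad2 and Tmem140 of the 47 genes were called lower, where 1.09% of all genes were, and 0 of the 47 were called higher. A gene was called at a Benjamini-Hochberg adjusted p under 0.05 in edgeR's quasi-likelihood test over 14543 genes. Of the 47 genes 41 had enough counts to be tested, and 8 of these fell, at a level at which 5.37% of all genes were called lower. The 8 were Irf1, Rsad2, Igtp, Irgm2, Gbp4, Gbp6, Gbp10 and Tmem140. The 3 that rose were Xaf1, Ifi35 and Parp14, a share near the 5.8% of all genes that were called higher. Every C-del library lay below every mock library for 10 of the 47 genes, against 8.51% of all genes tested, and above for 5 genes, again close to the 9.05% of all genes. Oas1a, Mx1, Mx2, Zbp1, Ifi47 and Cxcl10 were too low to test.

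**Figure D1:**
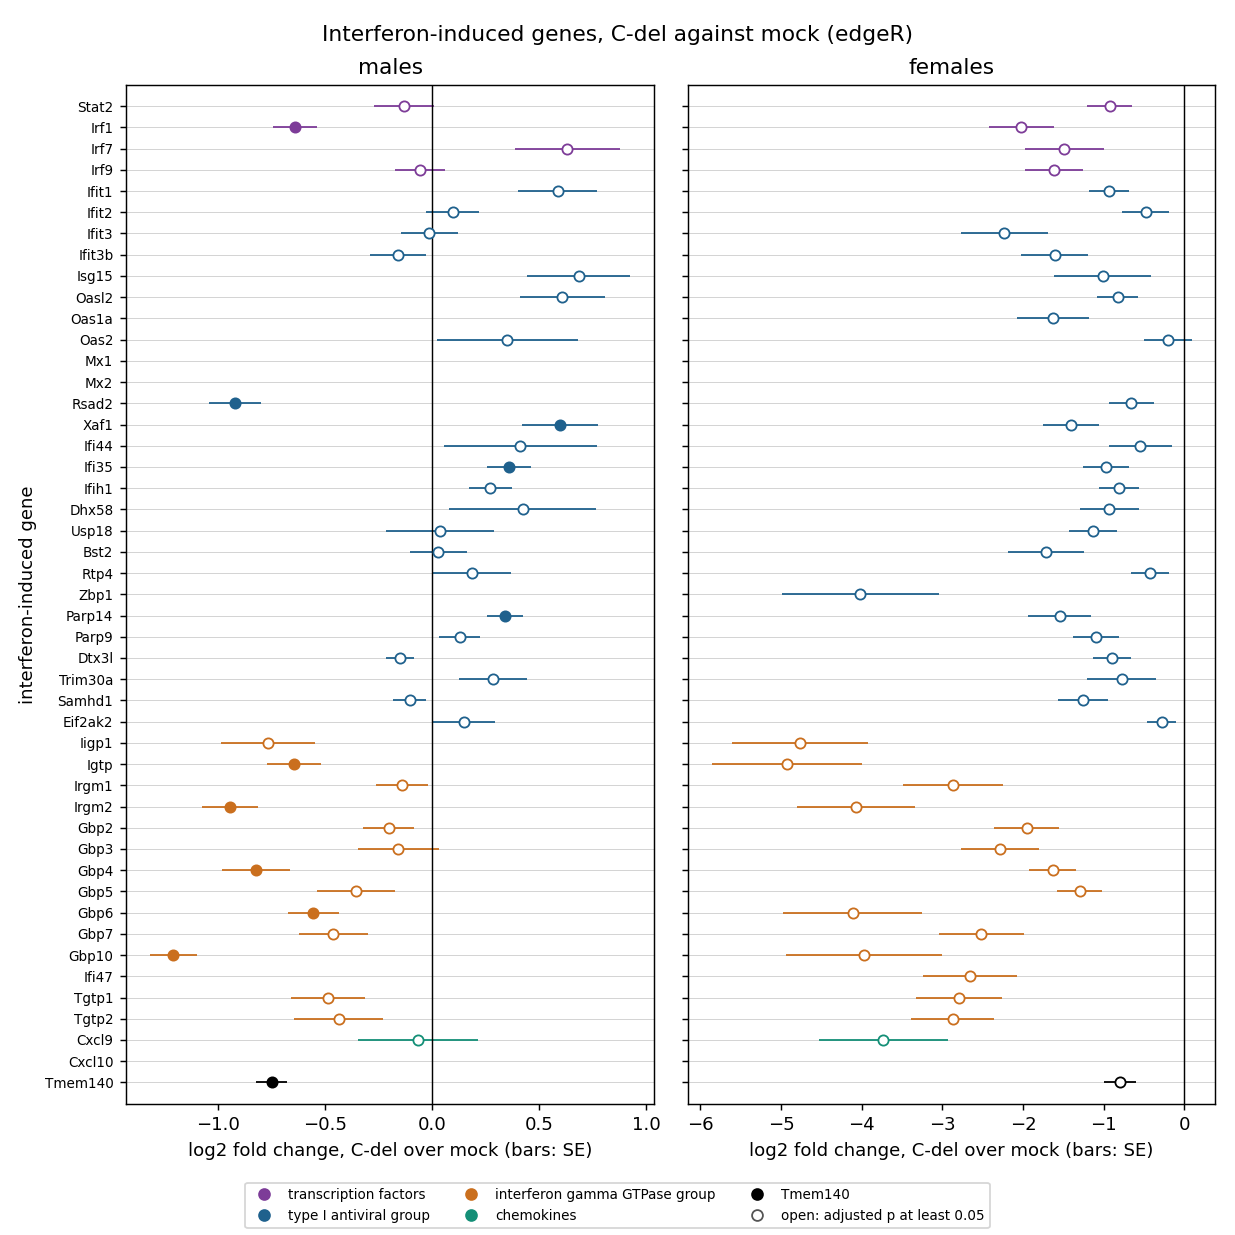
Log2 fold change (x axis, C-del over mock) of each tested interferon-induced gene (rows) in males and in females, with bars of 1 SE and filled points at an adjusted p under 0.05. In males the GTPase group lies left of 0 with 5 filled points and 3 filled type I points lie right of it, while in females all 44 points lie left of 0 and none is filled; the x axes differ in scale.

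Among the transcription factors Irf1, which interferon gamma induces and which in turn drives GTPase genes, was at 9.03, 7.09, 7.503 and 7.85 CPM in C-del libraries, against 12.9, 12.4, 13.03 and 10.6 CPM in mock libraries. The groups did not overlap, and the log2 fold change was -0.64 ± 0.10 (SE; edgeR, adjusted p = 0.00114). Stat2, part of the type I signalling complex, was at 6.77, 4.99, 4.96 and 5.23 CPM in C-del libraries, against 5.04, 6.31, 7.096 and 5.56 CPM in mock libraries. C-del library 1 was the highest of its group by a wide margin, the groups overlapped, and the log2 fold change was -0.13 ± 0.14 (SE; edgeR, adjusted p = 0.607). Irf9, the DNA-binding part of the same complex, had a log2 fold change of -0.06 ± 0.12 (SE; edgeR, adjusted p = 0.810). Irf7, which drives transcription of type I interferon genes, was at 6.898, 4.59, 3.62 and 2.91 CPM in C-del libraries, against 2.59, 3.56, 2.59 and 2.85 CPM in mock libraries. Only C-del libraries 1 and 2 lay clearly above the mock libraries, and the log2 fold change was 0.63 ± 0.24 (SE; edgeR, adjusted p = 0.123).

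In the GTPase group 0 genes rose, and all 13 tested had log2 fold changes below 0, with a median of -0.49 against -0.0047 over all genes. With no filter on low counts all 14 genes were below 0 and the median was -0.47. The summed level of the 14 genes was 90.07, 79.8, 80.5 and 75.5 CPM in C-del libraries, against 143.5, 129.6, 105.3 and 109.4 CPM in mock libraries. Every C-del library was thus below every mock library, and mock libraries 1 and 2 were the highest.

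The immunity-related GTPases attach to vacuoles that hold pathogens and help to break them open. Irgm2 was at 8.83, 7.65, 9.58 and 8.08 CPM in C-del libraries, against 17.97, 19.9, 14.8 and 12.8 CPM in mock libraries. The ranges did not meet, and the log2 fold change was -0.94 ± 0.13 (SE; edgeR, adjusted p = 0.000477). Igtp (Irgm3) was at 5.48, 4.31, 4.02 and 4.303 CPM in C-del libraries, against 7.44, 7.85, 6.41 and 6.597 CPM in mock libraries. Again no C-del library reached a mock library, with a log2 fold change of -0.64 ± 0.12 (SE; edgeR, adjusted p = 0.00425). Iigp1 (Irga6) was at 5.03, 6.12, 6.096 and 5.58 CPM in C-del libraries, against 14.7, 9.46, 7.44 and 7.15 CPM in mock libraries. The 4 C-del libraries were below all mock libraries, of which library 1 stood high, and the adjusted p missed the threshold at a log2 fold change of -0.76 ± 0.22 (SE; edgeR, adjusted p = 0.0525). Irgm1, the regulatory member of this family, overlapped between groups, with a log2 fold change of -0.14 ± 0.12 (SE; edgeR, adjusted p = 0.523). Tgtp1 and Tgtp2, neighbouring near-copies on chromosome 11, had log2 fold changes of -0.49 ± 0.17 and -0.44 ± 0.21 (SE), with adjusted p of 0.0875 and 0.204 in edgeR. Reads of such copies may have been split between them by the counting, and their sum was 4.69 to 5.48 CPM with C-del and 5.0 to 9.05 CPM with mock.

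The guanylate-binding proteins coat and lyse microbes and feed inflammasome activation. Gbp10 was at 6.83, 5.101, 7.503 and 6.28 CPM in C-del libraries, against 15.1, 15.4, 13.7 and 14.9 CPM in mock libraries. It had the lowest log2 fold change of the 41 tested genes, -1.21 ± 0.11 (SE; edgeR, adjusted p = 1.15e-05). Gbp4 was at 4.45, 4.93, 4.09 and 3.26 CPM in C-del libraries, against 9.12, 8.05, 6.07 and 6.25 CPM in mock libraries. Its groups did not overlap, and the log2 fold change was -0.82 ± 0.16 (SE; edgeR, adjusted p = 0.00431). Gbp6 was at 11.4, 10.1, 10.6 and 8.72 CPM in C-del libraries, against 18.7, 13.6, 13.9 and 13.5 CPM in mock libraries. Mock library 1 was the highest and C-del libraries were all lower than mock, with a log2 fold change of -0.55 ± 0.12 (SE; edgeR, adjusted p = 0.00782). Gbp6 and Gbp10 lie near each other on chromosome 5, and since most of their deposited values were not whole, reads may have been shared between copies. Their sum was 15 to 18.2 CPM with C-del and 27.6 to 33.8 CPM with mock. The 3 genes of this family with the weakest differences were Gbp2, Gbp3 and Gbp5, with log2 fold changes of -0.20 ± 0.12, -0.16 ± 0.19 and -0.35 ± 0.18 (SE) and overlapping groups. Their adjusted p values in edgeR were 0.308, 0.652 and 0.243, and Gbp7 was at -0.46 with 0.0961.

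**Figure D2:**
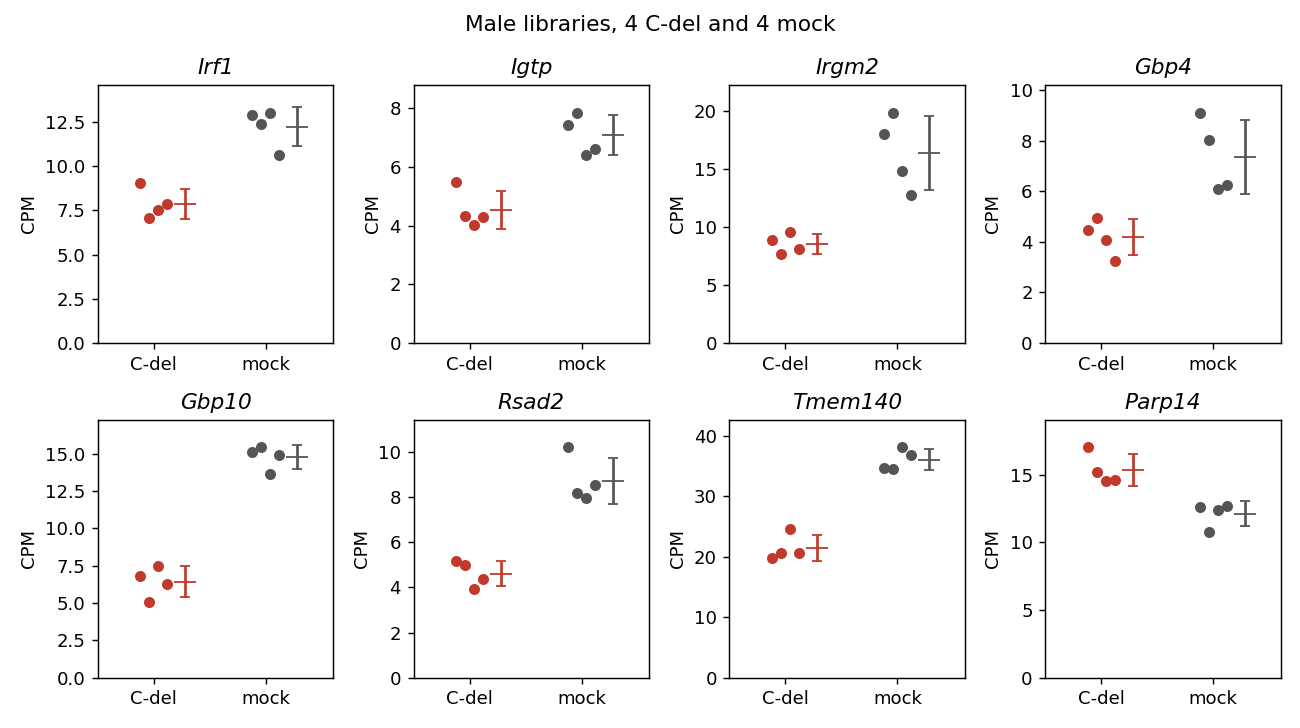
Level in CPM (y axis, from 0) of 8 interferon-induced genes in the 4 C-del and 4 mock libraries of males; points are libraries, and the bar beside them is the mean with 1 SD. For Irf1, Igtp, Irgm2, Gbp4, Gbp10, Rsad2 and Tmem140 every C-del library lies below every mock library, and for Parp14 every one lies above.

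In the type I antiviral group 3 of 22 tested genes rose and 1 fell, 17 had log2 fold changes above 0, and the median was 0.23. With no filter on low counts, 20 of 26 genes were above 0 and the median was 0.28. The summed level overlapped between groups, at 163.3, 150.6, 139.7 and 133.2 CPM in C-del libraries and 142.0, 135.4, 136.0 and 139.0 CPM in mock libraries. Parp14, an ADP-ribosyltransferase, was at 17.02, 15.2, 14.5 and 14.6 CPM in C-del libraries, against 12.6, 10.7, 12.4 and 12.7 CPM in mock libraries. All C-del libraries were above all mock libraries, with a log2 fold change of 0.34 ± 0.08 (SE; edgeR, adjusted p = 0.0185). Ifi35, an interferon-induced leucine zipper protein, was at 15.6, 15.5, 14.5 and 12.3 CPM in C-del libraries, against 11.5, 11.6, 12.4 and 9.51 CPM in mock libraries. C-del library 4 lay within the mock range, and the log2 fold change was 0.36 ± 0.10 (SE; edgeR, adjusted p = 0.0341). Xaf1, which binds the apoptosis inhibitor XIAP, was at 2.71, 2.61, 3.75 and 2.62 CPM in C-del libraries, against 2.13, 1.68, 2.05 and 1.81 CPM in mock libraries. C-del library 3 stood above the others of its group, the groups did not overlap, and the log2 fold change was 0.60 ± 0.18 (SE; edgeR, adjusted p = 0.0430).

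These 3 calls were less steady than the 8 lower ones. When each library was left out in turn, Xaf1 kept its call in 0, Ifi35 in 2 and Parp14 in 6 of 8 fits, whereas each of the 8 lower genes kept it in all 8. Xaf1 also missed the threshold in DESeq2 (adjusted p = 0.104). The summed level of 9 macrophage markers was 197, 214, 65.0 and 83.1 CPM in C-del libraries, against 82.6, 85.5, 79.7 and 95.6 CPM in mock libraries. Without C-del libraries 1 and 2, which carried the high macrophage sums, the log2 fold change was 0.24 for Ifi35 (adjusted p = 0.248), 0.27 for Parp14 (0.127) and 0.72 for Xaf1 (0.0541). In the same fit the median of the type I group was -0.00066, and Ifit1 was called at 0.74. The median of the GTPase group was -0.56 there, and 6 of its 13 tested genes were called lower, against 482 of all 14875 genes. These libraries were chosen to be left out after seeing the data, and the part of macrophages in either group of genes was not tested. Bulk RNA cannot tell a change in the number of cells of a type from a change in RNA per cell.

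Against the direction of its group, Rsad2, which encodes the antiviral enzyme viperin, was at 5.16, 4.99, 3.95 and 4.36 CPM in C-del libraries, against 10.2, 8.18, 7.98 and 8.54 CPM in mock libraries. The highest C-del library was well under the lowest mock library, and the log2 fold change was -0.92 ± 0.12 (SE; edgeR, adjusted p = 0.000269). Of the RNA sensors and effectors that did not pass, Ifit1, which binds viral RNA ends, was at 3.29, 2.49, 4.29 and 2.97 CPM in C-del libraries, against 2.33, 2.01, 2.32 and 1.94 CPM in mock libraries. Its groups did not overlap, at a log2 fold change of 0.59 ± 0.18 (SE; edgeR, adjusted p = 0.0534). Oasl2, an oligoadenylate synthetase-like protein, also had no overlap, at 4.64, 4.25, 2.88 and 2.73 CPM in C-del libraries, against 1.88, 2.35, 2.66 and 2.64 CPM in mock libraries and a log2 fold change of 0.61 ± 0.20 (SE; edgeR, adjusted p = 0.0639). Isg15, a ubiquitin-like protein, was at 1.81, 1.19, 1.54 and 1.57 CPM in C-del libraries, against 0.711, 1.21, 1.09 and 0.764 CPM in mock libraries, with overlapping groups and a log2 fold change of 0.69 ± 0.24 (SE; edgeR, adjusted p = 0.0826). Ifih1 (MDA5, a sensor of double-stranded RNA) had a mean of 6.92 ± 0.401 CPM with C-del and 5.72 ± 0.167 CPM with mock (SD, n = 4 each), with no overlap and a log2 fold change of 0.27 ± 0.10 (SE; edgeR, adjusted p = 0.0933).

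Other genes of the group overlapped between C-del and mock. Ifit3, which works in a complex with other IFIT proteins, had a log2 fold change of -0.01 ± 0.13 (SE; edgeR, adjusted p = 0.968), and Usp18, which removes ISG15 and dampens the type I receptor, one of 0.04 ± 0.25 (SE; edgeR, adjusted p = 0.945). Bst2 (tetherin, which holds budding virus) was at 0.03 ± 0.13, Samhd1 (which depletes deoxynucleotides) at -0.10 ± 0.08, Oas2 at 0.35 ± 0.33 and Eif2ak2 (the kinase PKR) at 0.15 ± 0.14 (log2 fold change, SE). Their adjusted p values in edgeR were 0.916, 0.431, 0.548 and 0.560. Zbp1, a sensor of Z-form nucleic acid, was at 1.55, 0.454, 0.268 and 0.523 CPM in C-del libraries, against 0.194, 0.268, 0.137 and 0.208 CPM in mock libraries. C-del library 1 was the highest and the groups overlapped. The remaining tested genes of the group (Ifit2, Ifit3b, Ifi44, Dhx58, Rtp4, Parp9, Dtx3l and Trim30a, of which Dtx3l alone did not overlap) had log2 fold changes between -0.16 and 0.42, none with an adjusted p under 0.177 in edgeR. Mx1, which C57BL/6 mice carry in a defective form and RefSeq lists as a transcribed pseudogene, was at 0.193, 0.3401, 0 and 0 CPM in C-del libraries, and in mock libraries a single count was found, in library 4.

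The chemokines that draw T cells to inflamed tissue were low. Cxcl9 was at 2.13, 1.304, 1.01 and 1.28 CPM in C-del libraries, against 2.13, 1.48, 1.43 and 0.903 CPM in mock libraries, with a log2 fold change of -0.07 ± 0.28 (SE; edgeR, adjusted p = 0.914). Cxcl10 was at 0.5802, 0.227, 0.737 and 0.291 CPM in C-del libraries, against 1.94, 0.268, 0.137 and 0.208 CPM in mock libraries, where mock library 1 stood out, and it was not tested. Tmem140 was at 19.9, 20.7, 24.7 and 20.7 CPM in C-del libraries, against 34.7, 34.6, 38.1 and 36.8 CPM in mock libraries. The groups were far apart, with a log2 fold change of -0.75 ± 0.07 (SE; edgeR, adjusted p = 1.62e-05). Its 3' part overlaps the gene Cyren (3176 shared bases in RefSeq), which was at 20.4, 20.4, 23.6 and 19.9 CPM in C-del libraries, against 33.4, 33.6, 37.4 and 35.1 CPM in mock libraries. Both genes had nearly the same value in every library, and without the counting options their reads cannot be told apart; Cyren was added after its values were seen.

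Of the pathway genes outside the list, the 10 interferon genes measured (Ifnb1, 4 interferon alpha genes, Ifnk, Ifne, Ifng, Ifnl2 and Ifnl3) had 0 counts in all 8 male libraries, where 3 counts correspond to between 0.170 and 0.208 CPM. Of 14 tested receptor, kinase and regulator genes Stat3 rose and Pias1, an inhibitor of STAT signalling, fell. Stat3 was at 86.8, 88.3, 86.5 and 88.2 CPM in C-del libraries, against 68.1, 66.7, 70.1 and 73.5 CPM in mock libraries, with no overlap and a log2 fold change of 0.33 ± 0.05 (SE; edgeR, adjusted p = 0.000445). Socs1, the feedback inhibitor of interferon gamma signalling, was chosen after its values were seen. It was too low to test but did not overlap, at 0.129, 0.283, 0.134 and 0.0582 CPM in C-del libraries, against 0.776, 0.805, 0.478 and 0.486 CPM in mock libraries. Of 12 tested genes of nucleic acid sensing 3 rose and 0 fell. Irf8, a factor of macrophages and dendritic cells, was at 6.898, 7.26, 6.03 and 5.99 CPM in C-del libraries, against 3.17, 2.95, 3.89 and 3.06 CPM in mock libraries. Both groups were tight and apart, with a log2 fold change of 1.0 ± 0.13 (SE; edgeR, adjusted p = 0.000211). Irf5 had a log2 fold change of 0.82 ± 0.11 (SE; edgeR, adjusted p = 0.000748), and Sting1, the adaptor of DNA sensing, one of 0.59 ± 0.17 (SE; edgeR, adjusted p = 0.0327). Of 23 tested antigen presentation genes only H2-K1, a class I heavy chain, passed, lower at -0.19 ± 0.06 (SE; edgeR, adjusted p = 0.0457). DESeq2 called neither H2-K1 (adjusted p = 0.0916) nor Pias1 (0.0917).

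In a fit of all 15 libraries, which shares the spread of the female mock libraries, the male calls of Rsad2 and Tmem140 remained. The adjusted p of Irf1, Igtp, Irgm2, Gbp4, Gbp6 and Gbp10 was then 0.362, 0.795, 0.530, 0.0952, 0.791 and 0.528, at log2 fold changes of -0.63, -0.64, -0.94, -0.82, -0.55 and -1.20.

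In female muscle all 44 tested genes had lower levels on average with C-del, yet 0 passed in either direction. Mock libraries 2 and 3 held far more of most of these transcripts than mock library 1, which was close to the C-del libraries. Over 14220 genes 0% were called lower and 0.0141% higher. At an unadjusted p under 0.05, 37 of the 44 were lower, against 7.09% of all genes. DESeq2 called 27 of the 44 lower at an adjusted p under 0.05, against 1.82% of all genes. Every C-del library lay below every mock library for 24 of the 47 genes, against 4.39% of all genes tested. Mx1, Mx2 and Cxcl10 were too low to test in this fit.

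The lowest log2 fold changes of all, those of Igtp and Iigp1, were in the GTPase group. Its summed level was 96.8, 110.3, 90.7 and 109.1 CPM in C-del libraries, against 146.1, 1601 and 2001 CPM in mock libraries 1, 2 and 3. All 14 genes were below 0, with a median log2 fold change of -2.83 against -0.015 over all genes, and 12 of the 14 had no overlap between groups. Iigp1 was at 11.4, 13.4, 11.2 and 12.2 CPM in C-del libraries, against 21.3, 426 and 538 CPM in mock libraries. Mock library 1 was above every C-del library, and libraries 2 and 3 were far higher still, with a log2 fold change of -4.77 ± 0.84 (SE; edgeR, adjusted p = 0.120). Igtp was at 6.8, 5.52, 4.57 and 6.15 CPM in C-del libraries, against 9.88, 147 and 369 CPM in mock libraries, again in the order C-del, mock library 1, then libraries 2 and 3, with a log2 fold change of -4.93 ± 0.93 (SE; edgeR, adjusted p = 0.136). Irgm2 was at 11.9, 11.4, 9.05 and 12.3 CPM in C-del libraries, against 19.1, 239 and 305 CPM in mock libraries, with the same order and a log2 fold change of -4.07 ± 0.73 (SE; edgeR, adjusted p = 0.120). Irgm1 was at 8.5, 7.54, 7.44 and 7.86 CPM in C-del libraries, against 8.78, 61.2 and 101 CPM in mock libraries. Mock library 1 was here only just above the highest C-del library, and the log2 fold change was -2.86 ± 0.62 (SE; edgeR, adjusted p = 0.155). Tgtp2 was at 3.94, 4.23, 3.21 and 3.93 CPM in C-del libraries, against 8.01, 51.2 and 24.5 CPM in mock libraries, with no overlap and a log2 fold change of -2.87 ± 0.52 (SE; edgeR, adjusted p = 0.120).

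The guanylate-binding proteins followed, with 2 exceptions. Gbp2 was at 11.4, 11.2, 10.8 and 11.9 CPM in C-del libraries, against 14.7, 63.7 and 52.6 CPM in mock libraries, with no overlap and a log2 fold change of -1.95 ± 0.40 (SE; edgeR, adjusted p = 0.152). Gbp4 was at 5.73, 8.55, 5.41 and 5.24 CPM in C-del libraries, against 12.6, 28.5 and 16.7 CPM in mock libraries, and Gbp5 at 5.91, 5.61, 4.31 and 5.54 CPM in C-del libraries, against 8.23, 19.9 and 11. CPM in mock libraries. In both, mock library 1 stood nearer to mock library 3 than in the immunity-related GTPases, at log2 fold changes of -1.63 ± 0.29 (SE; edgeR, adjusted p = 0.119) and -1.30 ± 0.28 (SE; edgeR, adjusted p = 0.152). Gbp3, Gbp7, Ifi47 and Tgtp1 had log2 fold changes between -2.79 and -2.28, each with no overlap. The exceptions were Gbp6 and Gbp10, whose levels in mock library 1 were not above the C-del libraries. Gbp6 was at 6.89, 10.9, 8.96 and 12.2 CPM in C-del libraries, against 9.11, 205 and 288 CPM in mock libraries, and Gbp10 at 3.85, 8.0, 5.92 and 9.47 CPM in C-del libraries, against 2.63, 143 and 173 CPM in mock libraries. For Gbp10 mock library 1 was the lowest of the 7 libraries. The log2 fold changes were -4.11 ± 0.86 and -3.97 ± 0.97 (SE), with adjusted p of 0.152 and 0.176 in edgeR.

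Among the transcription factors Irf1 was at 8.95, 10.4, 9.72 and 9.77 CPM in C-del libraries, against 13.9, 61.6 and 42.6 CPM in mock libraries. All mock libraries were above all C-del libraries, with a log2 fold change of -2.02 ± 0.40 (SE; edgeR, adjusted p = 0.150). Irf9 was at 6.35, 5.15, 4.14 and 4.63 CPM in C-del libraries, against 6.37, 18.95 and 21.2 CPM in mock libraries. Mock library 1 was hardly above C-del library 1, with a log2 fold change of -1.62 ± 0.36 (SE; edgeR, adjusted p = 0.157). Stat2 and Irf7 overlapped between groups, with log2 fold changes of -0.93 ± 0.28 and -1.49 ± 0.49 (SE) and adjusted p of 0.228 and 0.272 in edgeR.

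**Figure D3:**
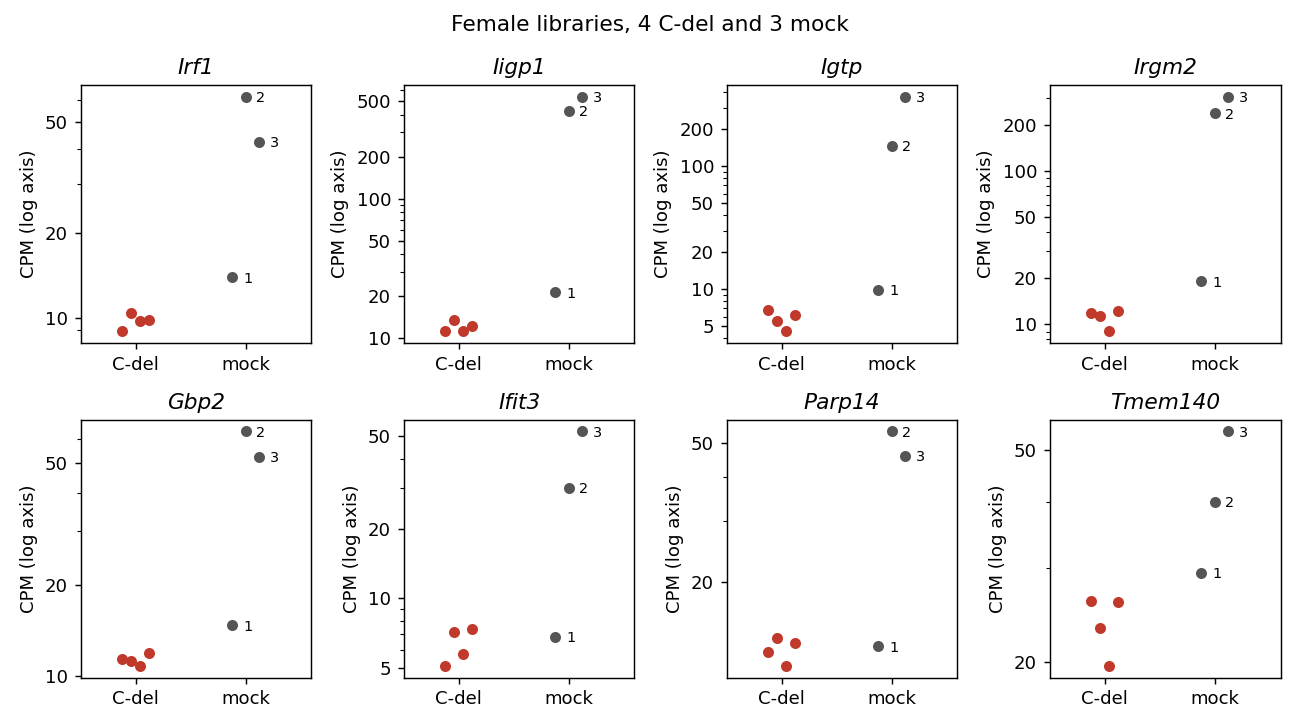
Level in CPM (y axis, log scale) of 8 interferon-induced genes in the 4 C-del and 3 mock libraries of females; points are libraries and the digits number the mock libraries. Mock libraries 2 and 3 lie above all others, and mock library 1 lies just above the C-del libraries for Irf1, Iigp1, Igtp, Irgm2, Gbp2 and Tmem140 and among them for Ifit3 and Parp14.

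In the type I antiviral group 0 of 24 tested genes passed, and the median log2 fold change was -0.95. The median ratio of the C-del mean to mock library 1 alone was 0.91. Its summed level was 148.8, 148.4, 126.5 and 147.5 CPM in C-del libraries, against 153.1, 406.8 and 416.2 CPM in mock libraries. Ifit3 was at 5.1, 7.17, 5.75 and 7.35 CPM in C-del libraries, against 6.81, 30.01 and 52.6 CPM in mock libraries. Mock library 1 fell among the C-del libraries, with a log2 fold change of -2.23 ± 0.54 (SE; edgeR, adjusted p = 0.171). Parp14 was at 12.7, 13.9, 11.6 and 13.5 CPM in C-del libraries, against 13.2, 53.8 and 45.8 CPM in mock libraries, with mock library 1 again among the C-del libraries and a log2 fold change of -1.55 ± 0.39 (SE; edgeR, adjusted p = 0.182). Samhd1 was at 23.4, 21.4, 22.6 and 25.1 CPM in C-del libraries, against 25.3, 77.5 and 62.7 CPM in mock libraries, with no overlap and a log2 fold change of -1.26 ± 0.31 (SE; edgeR, adjusted p = 0.179). Zbp1 had the lowest log2 fold change of the group, -4.01 ± 0.97 (SE; edgeR, adjusted p = 0.171), at 0.447, 0.184, 0.0845 and 1.01 CPM in C-del libraries, against 0.439, 12.5 and 7.59 CPM in mock libraries. Mock libraries 2 and 3 alone stood out in it.

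Xaf1 was at 1.88, 2.58, 2.37 and 1.91 CPM in C-del libraries, against 2.74, 5.97 and 8.69 CPM in mock libraries, with no overlap and a log2 fold change of -1.40 ± 0.35 (SE; edgeR, adjusted p = 0.171). Ifit1 was at 2.86, 2.58, 2.03 and 3.43 CPM in C-del libraries, against 3.73, 5.97 and 5.83 CPM in mock libraries, with no overlap and a log2 fold change of -0.93 ± 0.25 (SE; edgeR, adjusted p = 0.193). Rsad2, the type I gene that fell in males, was at 6.26, 5.701, 3.72 and 7.66 CPM in C-del libraries, against 6.04, 11.4 and 10.01 CPM in mock libraries, with overlapping groups and a log2 fold change of -0.66 ± 0.28 (SE; edgeR, adjusted p = 0.384). Isg15 was at 1.97, 2.02, 1.099 and 2.42 CPM in C-del libraries, against 0.549, 4.48 and 6.27 CPM in mock libraries. Mock library 1 was the lowest of all 7 libraries, and the log2 fold change was -1.01 ± 0.60 (SE; edgeR, adjusted p = 0.544). Ifi35, Ifih1 and Usp18 had no overlap, with log2 fold changes of -0.97 ± 0.29, -0.81 ± 0.24 and -1.14 ± 0.30 (SE) and adjusted p of 0.219, 0.221 and 0.186 in edgeR. For Ifi35 mock library 1 was hardly above the C-del libraries, at 9.769 CPM against 9.747 CPM in the highest of them. Bst2 and Oasl2 overlapped, at -1.72 ± 0.47 and -0.82 ± 0.25 (SE), with 0.197 and 0.233. Ifit2, Ifit3b, Oas1a, Ifi44, Dhx58, Rtp4, Parp9, Dtx3l and Trim30a ranged from -1.63 to -0.42, with adjusted p of at least 0.186 in edgeR. The values closest to 0 were those of Oas2 (-0.20, 0.807) and Eif2ak2 (-0.28, 0.577).

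Cxcl9 was at 2.51, 3.22, 1.86 and 3.53 CPM in C-del libraries, against 3.73, 77.1 and 28.5 CPM in mock libraries. The C-del libraries were all below mock library 1, and libraries 2 and 3 were again far above, with a log2 fold change of -3.73 ± 0.80 (SE; edgeR, adjusted p = 0.155). Cxcl10 was at 0.268, 0.09196, 0.169 and 0.202 CPM in C-del libraries, against 0, 8.34 and 6.82 CPM in mock libraries, so that only mock libraries 2 and 3 held more than a trace. It had enough counts in the fit without mock library 1, with a log2 fold change of -5.29. That fit keeps as mock only the 2 libraries that are high in Cxcl10, so no conclusion is drawn from its call there. Mx1 was at 0, 0.184, 0 and 0.202 CPM in C-del libraries, against 0, 1.32 and 0.8801 CPM in mock libraries, likewise. Tmem140 was at 26.04, 23.2, 19.7 and 25.99 CPM in C-del libraries, against 29.4, 40.01 and 54.1 CPM in mock libraries. Its mock libraries differed less than those of the GTPases, and the log2 fold change was -0.80 ± 0.19 (SE; edgeR, adjusted p = 0.165), close to that of males. Without mock libraries 2 and 3 the log2 fold change was -0.31, so that closeness rests on these libraries.

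Mock library 1 by itself was above every C-del library for 24 of the 47 genes, against 24.7% of all genes tested, and below every one for 4. The share of all genes below was not computed. The 47 also include 3 genes too low to test, whereas the 24.7% covers tested genes only. In the GTPase group it was above for 12 of 14, in the type I group for 8 of 26. The median ratio of the C-del mean to mock library 1 was 0.67 in the GTPase group, 0.91 in the type I group and 1.0 over all genes. Against mock library 2 the median ratio was 0.084 in the GTPase group and 0.38 in the type I group, and against mock library 3 it was 0.16 and 0.46. Without mock library 1, 37 of 45 tested genes were called lower, against 6.36% of all genes, and these included 14 of 14 in the GTPase group. That fit keeps as mock only libraries 2 and 3, which were high in most of these genes. Cxcl10 had enough counts for it only through these libraries. In the fit of all 15 libraries 33 of 45 were called lower, against 3.37% of all genes. That fit shares the spread of the male libraries, and the fit of all female libraries by themselves called 0 of 44. The 33 include Cxcl10, which was too low to test in the fit of each sex with all its libraries. Without mock libraries 2 and 3, with the one mock library left taken to be as variable as C-del, 0 were called and only 4 genes in all.

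Markers of leukocytes moved with these libraries. The summed level of 5 leukocyte genes was 14.5, 8.28, 7.27 and 8.66 CPM in C-del libraries, against 11.1, 276.1 and 99.6 CPM in mock libraries 1, 2 and 3. For 7 T cell genes it was 0.0920 to 0.504 CPM with C-del, against 0.329, 55.4 and 10.4 CPM, and for 6 NK cell genes at most 0.169 CPM with C-del, against 0.220, 13.1 and 5.83 CPM. For 9 macrophage genes it was 58.3 to 123.5 CPM with C-del, against 95.2, 604.5 and 296.6 CPM. B and plasma cell genes separated the 2 high libraries, at 7.78 to 59.6 CPM with C-del, against 103.2, 6423 and 31.8 CPM. The GTPase sum was higher in mock library 3 than in mock library 2, whereas all these leukocyte sums were higher in library 2. By gene the order differed from that of the GTPase sum. The median ratio of the C-del mean to mock in that group was lower for library 2 (0.084) than for library 3 (0.16). The part of leukocytes in the result was not tested. The endothelial sum ran the other way, at 326.5 to 353.0 CPM with C-del and 256.5 to 291.9 CPM with mock.

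**Figure D4:**
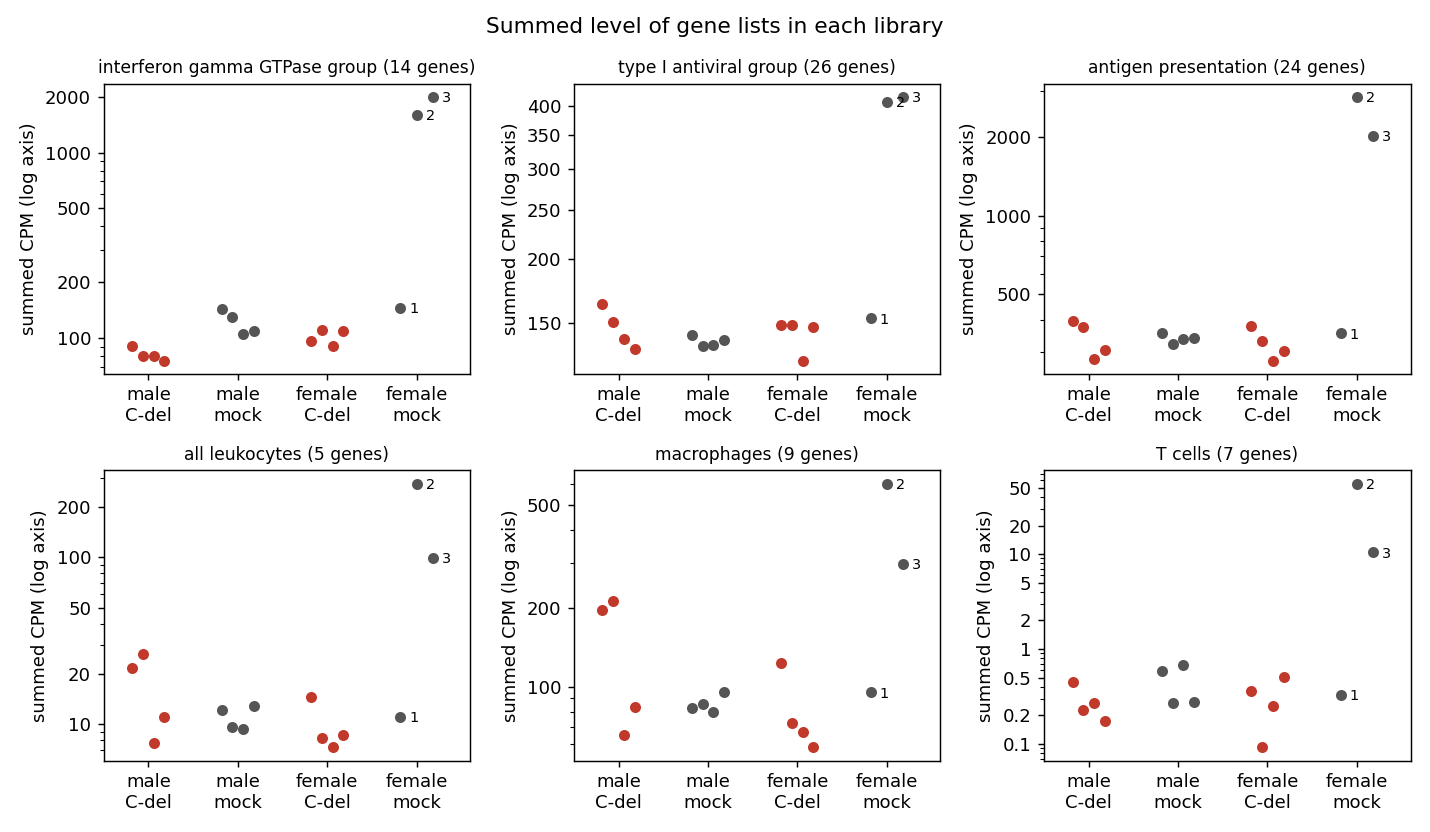
Summed CPM (y axis, log scale) of 6 gene lists in each library of the 4 groups, C-del in red and mock in grey, with the female mock libraries numbered. Female mock libraries 2 and 3 stand above every other library in all 6 panels, and in the GTPase panel the male C-del libraries (75.5 to 90.07 CPM) lie below the male mock libraries (105.3 to 143.5 CPM).

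Among the pathway genes, Ifng itself was found only in female mock libraries 2 and 3, at 0.790 and 0.660 CPM. It had 0 counts in the C-del libraries, where 3 counts correspond to between 0.253 and 0.302 CPM, and the other 9 interferon genes had 0 counts in all 7 female libraries. Socs1 was at 0.0895, 0.552, 0.169 and 0.202 CPM in C-del libraries, against 0.768, 3.42 and 3.63 CPM in mock libraries. Of 14 tested signalling genes 0 passed, and 4 were lower at an unadjusted p under 0.05. Of 12 tested genes of nucleic acid sensing 0 passed, 11 had log2 fold changes below 0, and 3 were lower at an unadjusted p under 0.05, of which DESeq2 called 1. Irf8, which rose in males, was at 4.38, 3.68, 3.30 and 4.53 CPM in C-del libraries, against 3.40, 32.5 and 16.5 CPM in mock libraries. Mock library 1 lay within the C-del range, and the log2 fold change was -2.15 ± 0.58 (SE; edgeR, adjusted p = 0.197). Of the 24 antigen presentation genes 0 passed, but all 24 were lower at an unadjusted p under 0.05, and DESeq2 called 22 of them lower. H2-K1 was at 42.5, 42.02, 32.4 and 34.6 CPM in C-del libraries, against 48.2, 341 and 241 CPM in mock libraries, and the invariant chain Cd74 was at 55.5, 29.1, 25.8 and 31.6 CPM in C-del libraries, against 36.4, 661 and 412 CPM in mock libraries. For H2-K1 the groups did not overlap, and for Cd74 mock library 1 lay within the C-del range.

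Whether the effect of C-del differed between the sexes was tested as the female minus the male log2 fold change in a fit of all 15 libraries. Of 45 genes tested 2 passed, both lower in females, against 0.183% of all genes called lower, and 0 were higher, against 0.17%. They were Xaf1 at -2.01 ± 0.39 (SE; edgeR, adjusted p = 0.0450) and Ifit1 at -1.53 ± 0.30 (SE; edgeR, adjusted p = 0.0450). Neither passed without female mock libraries 2 and 3, where the differences were -0.93 for Xaf1 (adjusted p = 0.345) and -1.06 for Ifit1 (adjusted p = 0.285). When each library was left out in turn, Xaf1 passed in 2 and Ifit1 in 2 of 15 fits.

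For the GTPases the differences did not pass in edgeR, such as -4.01 ± 1.05 (SE; edgeR, adjusted p = 0.0903) for Iigp1 and -4.30 ± 1.16 (SE; edgeR, adjusted p = 0.0925) for Igtp. DESeq2 called 10 of the 14 lower, these 2 among them, where it called 656 genes in all. For Irf8 it was -3.15 ± 0.64 (SE; edgeR, adjusted p = 0.0581), which DESeq2 called (adjusted p = 9.20e-05). For Irf1 the difference was -1.39 ± 0.45 (SE; edgeR, adjusted p = 0.134), which DESeq2 called as well (adjusted p = 0.0314). The differences of Rsad2 and Tmem140, both lower in males, were 0.25 ± 0.30 (SE; edgeR, adjusted p = 0.689) and -0.05 ± 0.21 (SE; edgeR, adjusted p = 0.914). Gbp10, the gene with the lowest fold change in males, had a difference of -2.77 ± 1.13 (SE; edgeR, adjusted p = 0.241). In the fit with female mock library 1 alone it was 2.56 (adjusted p = 0.0377), and mock library 1 held less Gbp10 than any female C-del library.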

How the data were processed

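RNA-seq libraries of 8 male and 7 female tibialis anterior samples were compared by group, C-del against mock, within each sex. The authors deposited expected counts per gene (estimated counts that need not be whole, with 14.6% to 17.3% of values per library not whole within 0.001) in 2 tables, 1 per sex, with no normalisation. They were made with featureCounts 2.0.0 on GRCm38.p6, per the submitters' processing notes, from TruSeq Stranded mRNA libraries (labels' protocols). Which aligner and counting options were used, and whether strand was, is not given in the sources used here, so values of near-identical copies and of the 19 listed genes that overlap another gene are less sure. Of the 47 genes 33 had values that were not whole.

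The deposited expected counts were rounded to whole numbers, since the test takes whole counts. Genes were kept by filterByExpr (minimum count 10), scaled with TMM factors and tested in R 4.3.3 with edgeR 4.0.16 (robust quasi-likelihood, limma 3.58.1), with adjustment over all genes tested and a threshold of 0.05. SE was derived as the size of the log2 fold change over the square root of F. DESeq2 1.42.0, RLE scaling, no filter, a joint fit, a replicate block and leaving out libraries were the alternatives. Tests were checked on simulated data. Motifs and figures used Python 3.11.15, pandas 2.3.3, numpy 2.4.6 and matplotlib 3.10.9. The smallest chi-square per gene between 2 libraries of a group was 2.62, so none was treated as a copy. The total counts set the precision, and counting intervals were not used, as libraries were compared by their spread.

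The 47 genes, their grouping, the pathway and cell type lists and the index genes were chosen with earlier results of these data known. By the rule for named genes, 25 index genes are named throughout, with every gene that passed a test and the 2 highest and 2 lowest fold changes of each sex, 33 genes in all, and the other genes by ranges and counts. From the pathway lists the genes that passed a test are named; the rule's 3 genes of highest mean count are not given for the other lists, and leukocyte lists are given as sums. Cyren, Lsmem2, Socs1, Cd74 and Ifng were chosen after their values were seen. One pathway gene is not reported here.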

Additional observations from a re-analysis of the deposited data

Results flagged for a closer look

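In groups of 4 libraries, 9 of 99 groups examined held a library whose gap to the nearest other, divided by the whole range, was above Dixon's critical value, where chance flags about 1 in 20. In male C-del library 1, Stat2 was at 6.77 CPM, with the other 3 at 4.96 to 5.23 CPM, and Irf9 at 8.58 CPM, with the others at 6.36 to 6.69 CPM. In male C-del library 3, Xaf1 was at 3.75 CPM, with the others at 2.61 to 2.71 CPM. In female C-del library 3, Irf7 was at 2.20 CPM, with the others at 4.97 to 5.54 CPM, and Ifi35 at 6.26 CPM, with the others at 9.48 to 9.75 CPM. In male mock library 1, Gbp6 was at 18.7 CPM, with the others at 13.5 to 13.9 CPM, and Cxcl10 at 1.94 CPM, with the others at 0.137 to 0.268 CPM. In male mock library 2, Parp14 was at 10.7 CPM, with the others at 12.4 to 12.7 CPM. In male mock library 4, Mx1 was at 0.0694 CPM, which is 1 count, with the others at 0.

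The female minus male log2 fold change passed the test for Ifit1 at -1.53 and for Xaf1 at -2.01 (edgeR, adjusted p = 0.0450 for each). Both missed the threshold without female mock libraries 2 and 3.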

How the results depend on the processing

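In males 1624 genes, 3 of the listed genes higher and 8 lower, were called. DESeq2 called 1514, 2 and 10, the fit of all 15 libraries 380, 0 and 2, no filter 1603, 5 and 8, and RLE scaling 1620, 3 and 8. Without C-del libraries 1 and 2 the counts were 1126, 1 and 9, and without mock libraries 3 and 4 they were 767, 0 and 12; both were added after seeing the data. Leaving out each library gave 1100 to 1526 genes, 0 to 4 higher and 8 to 10 lower. In females, where 2 genes and none of the listed were called, DESeq2 called 377 genes and 27 listed genes lower, the fit of all 15 libraries 777 and 33, no filter 16 and 0, and the fit without mock libraries 2 and 3 called 4 and 0. Leaving out each library gave 1 to 1050 genes and 0 to 37 lower, with both highest values without mock library 1. For the difference (54 genes, 2 lower), DESeq2 called 656 genes and 27 lower, and without female mock libraries 2 and 3 there were 39 genes, 1 higher and 0 lower. Leaving out each library gave 10 to 1817 genes and 0 to 38 lower. The causes were not tested.

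The sign of some fold changes that had not passed turned. In males without C-del libraries 1 and 2 these were Oas2 (-0.34), Usp18 (-0.16), Bst2 (-0.23) and Eif2ak2 (-0.028), and without mock libraries 3 and 4 Irf9 (0.036) and Usp18 (-0.053). Leaving out 1 library turned Bst2 (-0.064 to 0.14), Cxcl9 (-0.31 to 0.17), Ifit3 (-0.094 to 0.057) and Usp18 (-0.167 to 0.232) in males and Tmem140 in the difference (-0.234 to 0.198). Without female mock libraries 2 and 3, Stat2 (0.049), Irf7 (0.18), Isg15 (1.74), Oas2 (0.18), Gbp6 (0.090) and Gbp10 (1.36) were above 0 in females. For the difference these were Stat2 (0.17), Irf1 (0.11), Isg15 (1.05), Irgm2 (0.16), Gbp6 (0.63), Gbp10 (2.56), Cxcl10 (4.89) and Tmem140 (0.43).

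Female libraries share numbers between groups, and the labels do not say whether same-numbered libraries share an animal or batch. Such libraries did not deviate together (correlations -0.13, -0.0081 and -0.041), which cannot exclude a pairing. The main fit assumed none. With a replicate block the counts were 2 genes and 0 listed genes. Male columns carry no numbers from the labels, so no paired analysis was possible there. At 9285000 to 17740000 counts per library, Mx1, Mx2 and Cxcl10 were too low to test in the fits of each sex with all its libraries, while Cxcl10 could be tested without female mock library 1 and when all 15 libraries were fitted together.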

Other observations

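In males the summed levels of the B and plasma cell genes and of the neutrophil genes did not overlap between the groups, whereas those of the pan-leukocyte, macrophage, T cell and NK cell genes did. The B and plasma cell sum was 36.8 to 49.4 CPM in C-del libraries, against 27.6 to 34.5 CPM in mock libraries. Most of this sum was Ighm, the heavy chain of IgM, at 43.1, 47.6, 47.3 and 35.4 CPM in C-del libraries, against 30.1, 29.4, 33.3 and 25.1 CPM in mock libraries, with a log2 fold change of 0.55 ± 0.10 (SE; edgeR, adjusted p = 0.00558). Mzb1, the only other gene of the list with enough counts, had a log2 fold change of 0.02. The other 6 of the 8 genes were too low to test, so the difference is that of Ighm and not of the list. The summed level of 3 neutrophil genes was 0.516 to 1.34 CPM in male C-del libraries, against 0.208 to 0.453 CPM in male mock libraries, too low for a test of each gene. In females the 4 endothelial genes were each higher in every C-del library than in every mock library, with log2 fold changes of 0.26 to 0.42 and 0 past the threshold in edgeR, while 4 had an unadjusted p under 0.05 and DESeq2 called 1. The share of all genes with this order of libraries was not computed, so the count is descriptive.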
